A study of Mus musculus with 6 samples.

Results

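The lysosome is the acidic compartment in which a cell breaks down material that it has engulfed, taken up from outside or delivered by autophagy. Soluble hydrolases cut lipids, sugars and proteins there, membrane proteins seal the compartment and move products out, and a proton pump (the V-ATPase) keeps the lumen acid. The pump has a membrane sector, V0, which carries the protons, and a cytosolic sector, V1, which splits ATP. Tfeb encodes a transcription factor that moves to the nucleus when lysosomal capacity is short and acts on many genes of this kind. In obese fat, macrophages that surround dying adipocytes take up lipid and are known for a large lysosomal compartment.

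The genes described here are 36 members of this system, chosen by symbol from a list, out of 33456 genes in the files. They comprise 12 hydrolases, 3 soluble proteins that are no hydrolases, 7 membrane proteins, the regulator Tfeb and 13 Atp6 genes of the pump (4 of V0, 7 of V1 and 2 accessory). Cells positive for CD45, a leukocyte antigen, and for the myeloid integrin chain CD11b were sorted from mouse visceral (epididymal) fat and sequenced singly. The study asked how these cells differ with long-term obesity, and its 6 samples are 3 controls and 3 of the high-fat diet group (HFD). The labels give no strain, sex, age or length of diet. They do not say whether each sample is a different animal, and the p-values cover no more than the variation among these 6 samples, part of which may be technical.

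The deposited matrices held 4477100 to 6992602 unique molecular identifiers (UMIs, 1 per captured RNA molecule) per sample. Between 62.4% and 90.2% of a sample's barcodes were also listed in another sample, and 1082 of 2195 barcodes stood in several. Each barcode was therefore counted only in the sample where it had most UMIs, which left 986 control and 1128 HFD cells with medians of 7233.5 and 9735 UMIs. Clustering without the 36 members gave 16 clusters, and 777 cells in 4 of them were called macrophage-like from marker genes. The sort did not leave myeloid cells only: 231 cells led by Col3a1 and Dcn were fibroblast-like, with 1.15% to 2.96% of the cells of control samples and 17.4% to 19.7% of those of HFD samples. Macrophage-like cells made up 26.2% to 37.3% of control and 37.9% to 40.8% of HFD cells. Unnamed clusters held 36.9% to 41.2% and 23.7% to 26.3%.

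Promoters were examined first, because the proteins of the Tfeb family bind a short palindrome, CACGTG, and bind it best inside the longer TCACGTGA. RefSeq promoters (build GRCm38.p6) were at hand for 30 of the 36 members, and the 250 bases before each annotated start were searched on both strands. Each motif is its own reverse complement, and every TCACGTGA contains the shorter motif. The shorter motif stood in 8 of the 30 members (26.7%), against 1854 of all 27025 genes in the table (6.86%). TCACGTGA stood in 4 of 30 (13.3%), namely Gla, Mcoln1, Cln3 and Atp6v1a, against 245 of 27025 (0.907%). The stretches below show 4 of the members with the motif, chosen to include a pump gene, a hydrolase and membrane proteins, and the pair with the largest diet differences, Lipa and Gusb, in which neither motif was found in these 250 bases. Capitals mark CACGTG, bases are given in the direction of transcription, and a match is a description, not a site of binding.
Lamp1, chr8:13159080-13159160, plus strand, bases -81 to -1: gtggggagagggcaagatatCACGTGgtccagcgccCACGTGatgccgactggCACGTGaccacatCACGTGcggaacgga
Gla, chrX:134601174-134601252, minus strand, bases -247 to -169: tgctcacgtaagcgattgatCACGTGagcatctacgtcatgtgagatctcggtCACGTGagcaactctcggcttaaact
Atp6v1a, chr16:44139365-44139410, minus strand, bases -151 to -106: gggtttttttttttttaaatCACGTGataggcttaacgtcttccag
Mcoln1, chr8:3500428-3500499, plus strand, bases -91 to -20: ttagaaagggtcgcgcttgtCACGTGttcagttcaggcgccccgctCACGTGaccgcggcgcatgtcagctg
Lipa, chr19:34527475-34527574, minus strand, bases -100 to -1: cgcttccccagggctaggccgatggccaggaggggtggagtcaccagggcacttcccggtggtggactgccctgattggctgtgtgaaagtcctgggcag
Gusb, chr5:130003050-130003149, minus strand, bases -100 to -1: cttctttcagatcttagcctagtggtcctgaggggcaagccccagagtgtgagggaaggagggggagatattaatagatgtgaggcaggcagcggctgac
Lamp1 held 4 copies of CACGTG, Gla 2 copies of the longer form, and Atp6v1a 1. Of the members with a promoter in the table, CACGTG stood in 3 of the 14 that were called higher in HFD in whole samples (Gaa, Lamp1 and Atp6v1a) and in 5 of the 16 that were not (Gla, Glb1, Mcoln1, Cln3 and Atp6v0b).

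In whole-sample sums, 18 of the 36 members were higher in HFD and none was lower. UMIs were summed over all kept cells of a sample and tested with edgeR's quasi-likelihood test over 10450 genes, with Benjamini-Hochberg adjustment and a threshold of 0.05. All 36 members passed the filter on low counts. Of all genes tested, 15.2% were called higher and 17.2% lower. The members' median log2 fold change was 0.34, against -0.02 for all genes, and 35 of 36 estimates were above 0. No member was lower at an unadjusted p under 0.05 or with DESeq2, which called 17 higher (1241 of all 10450 genes). In such sums, a shift in the mix of cell types and a change within cells cannot be told apart.

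Levels below are CPM, the share of a sample's UMIs expressed on the usual counts-per-million scale, with library sizes corrected by edgeR's TMM factors. They are not divided by transcript length, so they are compared between samples and cell classes, and not between genes. With library totals alone as the scale, the median of all genes moved from -0.02 to 0.13 (log2) in whole samples, 27 members were called higher and none lower, and calls over all genes went from 1593 higher and 1796 lower to 2322 and 1271.

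**Figure D1:**
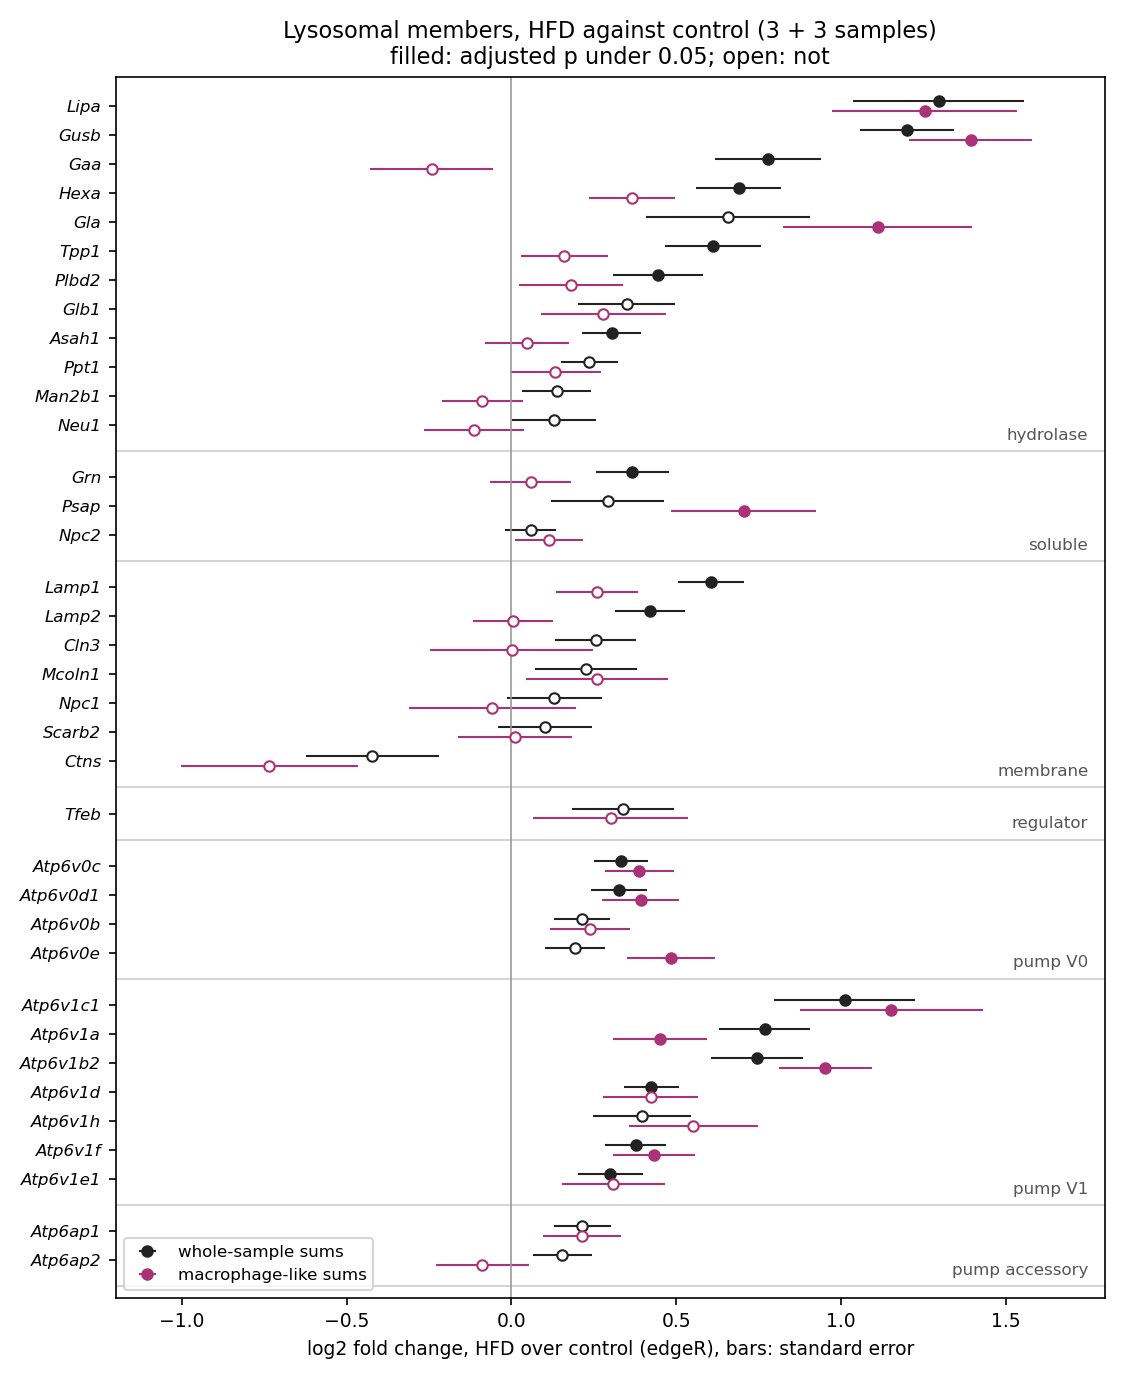
Log2 fold change of each member, HFD over control, with its standard error, for whole-sample sums (black) and macrophage-like sums (magenta); filled points have an adjusted p under 0.05. Lipa and Gusb lie farthest right among hydrolases in both, pump V1 genes lie right of 0 in both, and Gaa, Hexa and Lamp1 are filled in black only.

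Of the 12 hydrolases, 7 rose in whole-sample sums, with a median log2 fold change of 0.53 over all 12. Lipa encodes acid lipase, which frees fatty acids and cholesterol from the lipid esters that reach the lysosome. Its level was 118, 163 and 280 CPM in control samples 1, 2 and 3 and 486, 461 and 428 CPM in HFD samples 1, 2 and 3. The groups did not overlap, although control 3 stood well above the other controls. Lipa rose by a log2 fold change of 1.30 ± 0.26 (SE, edgeR adjusted p = 0.0055). Gusb encodes beta-glucuronidase, which trims glycosaminoglycans. It was at 138, 124 and 184 CPM in control and at 368, 318 and 340 CPM in HFD, so the lowest HFD sample lay far above the highest control. Its log2 fold change was 1.20 ± 0.14 (edgeR adjusted p = 0.000524).

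Gaa, the acid glucosidase that degrades glycogen, had few UMIs, at 25.3, 15.99 and 21.9 CPM in control and 36.5, 39.5 and 35.2 CPM in HFD. It rose by 0.78 ± 0.16 (edgeR adjusted p = 0.0063). Hexa, a subunit of the hexosaminidases that cut gangliosides, had the most UMIs of the 12 hydrolases, without regard to length. It stood at 503, 420 and 599 CPM in control and at 855, 843 and 756 CPM in HFD, without overlap, and rose by 0.69 ± 0.13. Tpp1, a peptidase, rose by 0.61 ± 0.14, Plbd2, a phospholipase B-like protein, by 0.44 ± 0.14, and Asah1, acid ceramidase, by 0.30 ± 0.09. The other 5 did not pass the threshold. Gla, alpha-galactosidase A, had a log2 fold change of 0.66 ± 0.25 (edgeR adjusted p = 0.073), and Glb1, Ppt1, Man2b1 and Neu1 lay between 0.13 and 0.35.

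Psap is the precursor of the saposins, which present lipids to the hydrolases, and had the most UMIs of the 36 members, without regard to length. It was at 3092, 3685 and 5075 CPM in control and at 5452, 4297 and 4762 CPM in HFD. Control 3 lay above HFD 2 and HFD 3, and the difference (0.29 ± 0.17) was not called. Grn, progranulin, a protein needed for normal hydrolase activity, rose by 0.37 ± 0.11, from 1008, 828 and 1105 CPM to 1292, 1228 and 1274 CPM. When only barcodes listed in 1 sample were used, Grn was instead lower in HFD by a log2 fold change of -0.36 (edgeR adjusted p = 0.047). Npc2, which carries cholesterol through the lumen, was nearly level at 1065 ± 17.7 and 1109 ± 26.3 CPM (mean and SD, n = 3 each).

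Among the 7 membrane proteins, 2 rose. Lamp1 and Lamp2 encode the most abundant glycoproteins of the lysosomal membrane. Lamp1 was at 751, 658 and 825 CPM in control and at 1144, 1164 and 1094 CPM in HFD, and rose by 0.61 ± 0.10 (edgeR adjusted p = 0.0022). Lamp2 was at 277, 223 and 275 CPM against 344, 370 and 326 CPM and rose by 0.42 ± 0.11. Neither gene overlapped between diets. Ctns, the cystine exporter, was the member with an estimate below 0, at -0.42 ± 0.20 (edgeR adjusted p = 0.14). Scarb2, the receptor that brings glucocerebrosidase to lysosomes, Npc1, the membrane partner of Npc2, the calcium channel Mcoln1 and Cln3 lay between 0.10 and 0.26 and were not called. Tfeb itself was at 22.3, 28.3 and 32.8 CPM in control and 36.8, 34.5 and 33.1 CPM in HFD. The groups came close without overlapping, and its difference of 0.34 ± 0.15 was not called (edgeR adjusted p = 0.12).

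Of the 13 pump genes, 8 rose, 6 of them among the 7 V1 subunits. Atp6v1c1, which holds V1 and V0 together, was at 54.0, 55.4 and 99.3 CPM in control and at 157, 133 and 131 CPM in HFD and had the largest pump difference, 1.01 ± 0.21 (edgeR adjusted p = 0.0071). Control 3 was again the highest control. Atp6v1a and Atp6v1b2 form the ring in which ATP is split. Atp6v1a was at 75.4, 86.4 and 113 CPM against 161, 155 and 151 CPM (0.77 ± 0.14), and Atp6v1b2 at 128, 164 and 193 CPM against 281, 276 and 253 CPM (0.74 ± 0.14). Atp6v1d and Atp6v1f rose by 0.42 and 0.38, and Atp6v1e1 passed the threshold narrowly at 0.30 ± 0.10 (edgeR adjusted p = 0.045). Atp6v1h, a regulatory subunit, had 0.40 ± 0.15 and an adjusted p of 0.070 in edgeR.

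In V0, Atp6v0c and Atp6v0d1 rose. Atp6v0c encodes the proteolipid of the proton-carrying ring and had the most UMIs of the pump genes, without regard to length, at 966, 968 and 1052 CPM in control and 1301, 1197 and 1259 CPM in HFD (0.33 ± 0.08). Atp6v0e and Atp6v0b were at 461 ± 34.7 and 434 ± 26.6 CPM in control and 527 ± 30.6 and 504 ± 15.3 CPM in HFD (mean and SD, n = 3), and neither was called. The accessory proteins Atp6ap1 and Atp6ap2 were at 178 ± 11.5 and 143 ± 12.2 CPM in control and 207 ± 9.85 and 159 ± 2.20 CPM in HFD, also not called.

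Across whole samples, 28 members were higher in every HFD than in every control sample, and the other 8 overlapped. Over all 10450 genes tested, 23.5% were higher in every HFD sample and 24.7% lower in every one. Lipa, Gusb, Lamp1, Atp6v1b2 and Atp6v1c1 stayed called in all 15 alternative analyses. Of single libraries, leaving out HFD 1 moved the count of members higher by more than 1.5 times, to 11 (1044 of all 10690 genes tested). Of the 15 alternatives, using only barcodes listed in 1 sample left the fewest higher members, 6 of 36. In that fit 965 of all 6810 genes tested were called higher, so the members' share was near that of all genes. The least stable calls were Atp6v1e1, called in 6 of the 15 (not by DESeq2, with estimates down to 0.0049), Plbd2 in 8, and Asah1 and Grn in 9 each.

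**Figure D2:**
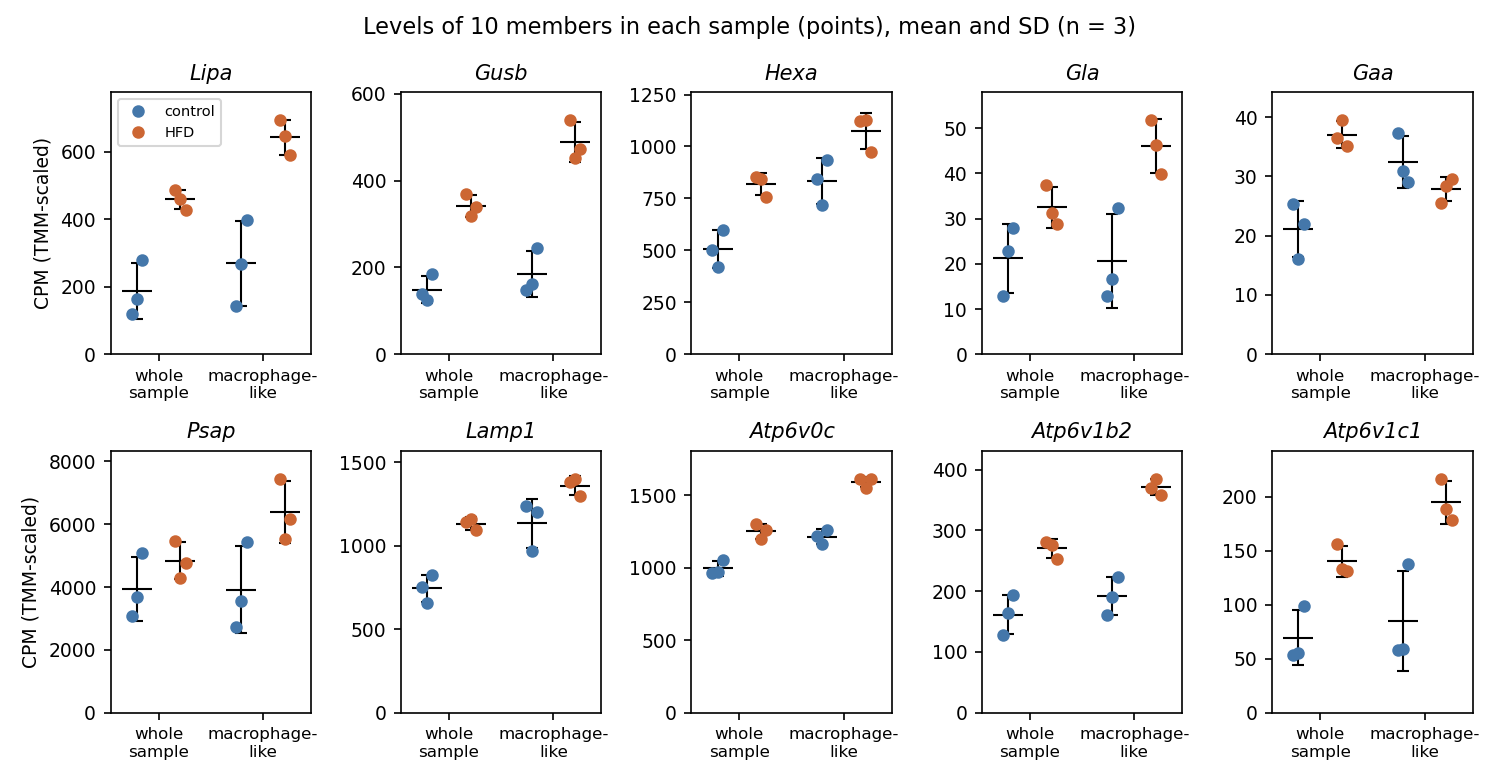
TMM-scaled CPM of 10 members in each sample (blue, control; orange, HFD) for whole-sample and macrophage-like sums, with mean and SD (n = 3). Gusb and Atp6v1b2 separate the diets in both sums, whereas Gaa separates them in whole samples and not in macrophage-like cells.

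The cell types in which the members were found bear on these sums. Where classes and clusters are set against each other, levels are CPM over all genes without TMM factors. They are pooled over samples unless samples are named. Macrophage-like cells had 3194 CPM for the 12 hydrolases, 4975 for the pump, 1903 for the membrane proteins and 8927 for the 3 soluble proteins. Fibroblast-like cells had 1248, 2171, 1555 and 3374 CPM for the same groups. Against macrophage-like cells, the members stood at a median of 49.5% in fibroblast-like (range 16.3% to 428%), 47.2% in cDC2-like (a kind of dendritic cell), 66.2% in monocyte-like and 40.4% in T cell-like cells. For comparison with RNA from other cells, C1qa, a complement gene of macrophages, was at 22.4% of its macrophage-like level in T cell-like and at 7.34% in fibroblast-like cells. Lipa stood at 24.2% and 16.3% in the same classes, so its level in T cell-like cells was near that background.

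Gaa went against this order. It was at 124 CPM in fibroblast-like cells, between 119.6 and 139 in the 3 HFD samples, each with more than 20 such cells, and at 29.0 in macrophage-like cells. Without fibroblast-like cells its whole-sample difference was no longer called (edgeR adjusted p = 0.0578). In that fit the members called higher went from 18 to 24, and 1422 of all 9960 genes tested were called higher. Lamp2, Scarb2 and Ctns were the other members at or above the macrophage-like level in fibroblast-like cells, at 417, 68.4 and 17.6 CPM. Npc2 was highest in migratory dendritic cell-like cells, at 1781.

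**Figure D3:**
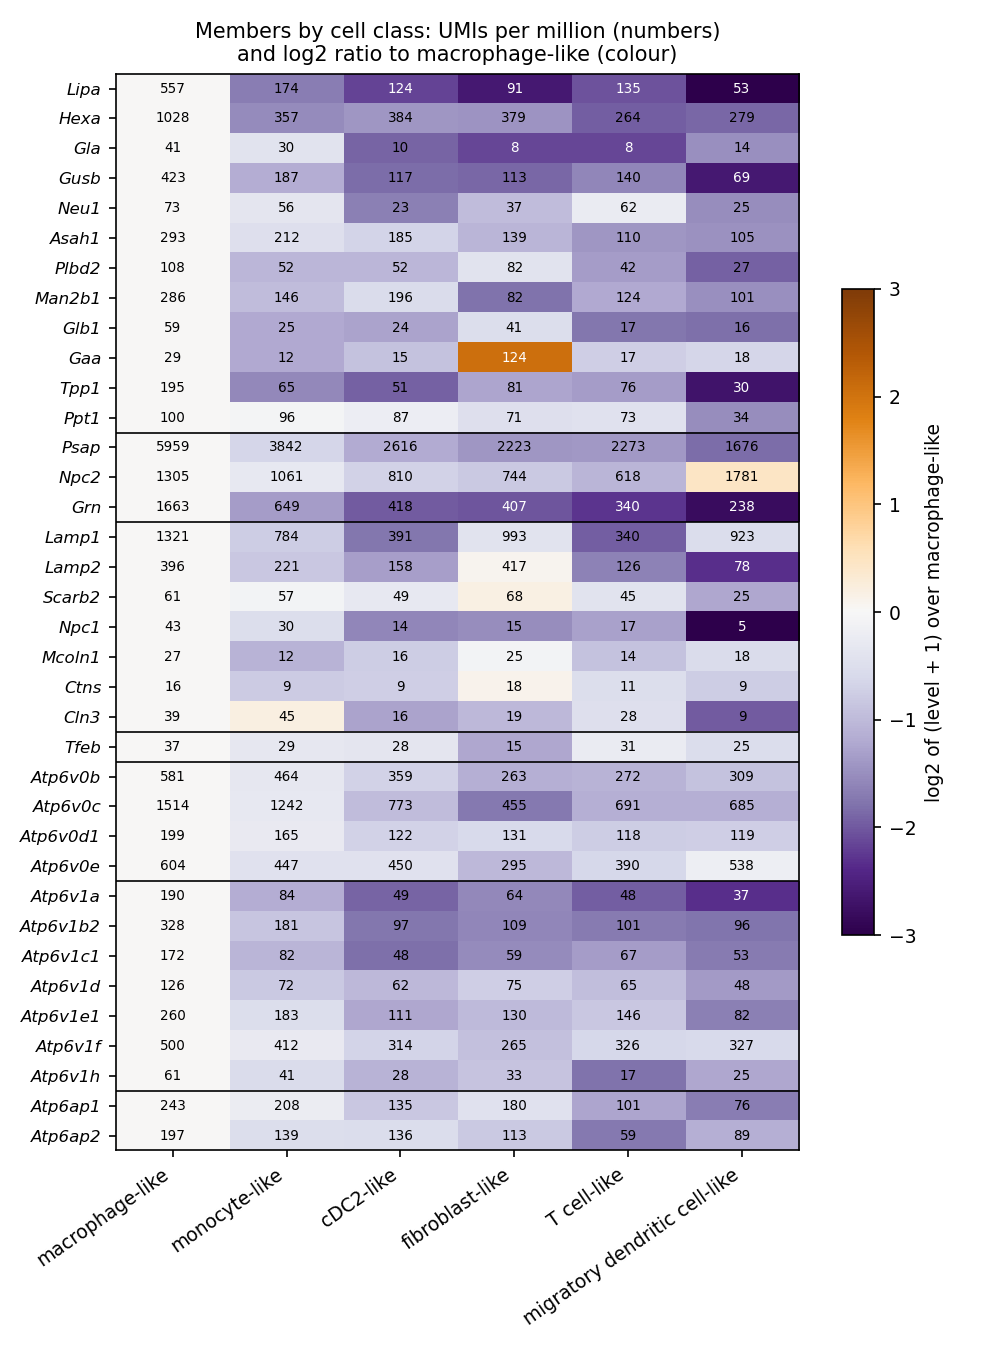
Pooled CPM of each member (numbers) in 6 cell classes, coloured by the log2 ratio of level + 1 to that in macrophage-like cells. Purple marks a level below macrophage-like, as in most boxes, and the deep orange box is Gaa in fibroblast-like cells, at 124 against 29.0 CPM.

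Within macrophage-like cells, 11 members were higher in HFD and none was lower, against 11.4% and 15.1% of the 7730 genes tested. All 36 members passed the filter, and their median log2 fold change was 0.26, against -0.03 for all genes. Of those called, 7 were pump genes, 3 hydrolases and 1 a soluble protein. At an unadjusted p under 0.05, 1 member, Ctns, was lower. DESeq2 called 10 members higher and none lower, and 635 of all 7730 genes higher and 868 lower. With totals alone as the scale, the median of all genes moved from -0.03 to 0.09, 15 members were called higher and none lower, and calls over all genes went from 885 higher and 1169 lower to 1251 and 963. Different clusters held most of these cells in the 2 diets: cluster 0, led by Cd209f, Lyve1 and Cd163, had 278 control and 41 HFD cells, and cluster 1, led by Spp1, Mmp12 and Gpnmb, had 17 and 264. Cells of cluster 1 had a median of 16344 UMIs and those of cluster 0 6121, and doublets were not removed. Their part in the result was not tested.

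Gusb was at 147, 161 and 245 CPM in control and at 539, 452 and 474 CPM in HFD macrophage-like cells, with no overlap (1.39 ± 0.19, edgeR adjusted p = 0.000644). Lipa was at 144, 266 and 397 CPM against 693, 645 and 589 CPM (1.25 ± 0.28, edgeR adjusted p = 0.0093). Gla, not called in whole samples, was at 12.8, 16.6 and 32.4 CPM against 51.8, 46.3 and 39.9 CPM and rose by 1.11 ± 0.29 (edgeR adjusted p = 0.018). In all of these the control samples spread widely, with control 3 highest. The mix of macrophage-like clusters also differed among the controls. Controls 1, 2 and 3 gave 0, 2 and 15 cells to cluster 1 and 1, 5 and 17 cells to cluster 8. The part of this mix in the spread was not tested. The other 9 hydrolases were not called. Hexa was at 0.37 ± 0.13 (edgeR adjusted p = 0.064) and was called with totals alone as the scale. Tpp1, Plbd2 and Asah1, which rose in whole samples, were at 0.16, 0.18 and 0.05, and Gaa at -0.24 ± 0.19.

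Psap rose by 0.70 ± 0.22, with 2734, 3568 and 5444 CPM in control and 7449, 5530 and 6169 CPM in HFD. The highest control and the lowest HFD sample were nearly equal. Grn was level at 1583 ± 213 and 1650 ± 46.2 CPM (mean and SD, n = 3). None of the 7 membrane proteins was called in macrophage-like cells. Lamp1 was at 1238, 966 and 1200 CPM against 1380, 1403 and 1299 CPM (0.26 ± 0.12, edgeR adjusted p = 0.15), and was called with totals alone as the scale. Lamp2 was at 391 ± 31.4 and 393 ± 23.6 CPM, and Ctns at -0.73 ± 0.27 (edgeR adjusted p = 0.066). Tfeb was at 30.7 ± 8.21 and 37.4 ± 6.35 CPM and was not called.

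Pump genes called in macrophage-like cells were Atp6v0c, Atp6v0d1 and Atp6v0e of V0 and Atp6v1a, Atp6v1b2, Atp6v1c1 and Atp6v1f of V1. They held unequally over the 17 alternatives: Atp6v1b2 was called in all 17 and Atp6v1c1 in 14, but Atp6v0c and Atp6v1f in 10, Atp6v0e in 9, Atp6v0d1 in 8 and Atp6v1a in 6, not by DESeq2. Atp6v1b2 was at 161, 190 and 223 CPM in control and at 370, 385 and 358 CPM in HFD (0.95 ± 0.14, edgeR adjusted p = 0.0011). Atp6v1c1 was at 57.7, 59.3 and 138 CPM against 217, 189 and 179 CPM (1.15 ± 0.28, edgeR adjusted p = 0.013). Atp6v0e had 401, 439 and 530 CPM against 686, 614 and 618 CPM (0.48 ± 0.13). Atp6ap2 was the pump gene with an estimate below 0, at -0.09 ± 0.14.

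In all, 19 members did not overlap between diets in macrophage-like cells, all of them higher in HFD, where 21.7% of the 7730 genes tested were higher in every HFD sample and 22.5% lower in every one. The count of 11 was less stable than that of whole samples. It was 7 without control 1 (598 of all 8633 genes tested were called higher), 3 without control 2 (615 of 8650) and 3 without HFD 1 (419 of 7381). Without HFD 2 it was 5 (541 of 7362), and without HFD 3 also 5 (649 of 7377). Without control 2 or without HFD 1, the members' share was near that of all genes. Gusb and Lipa, like Atp6v1b2, were called in all 17 alternatives, Gla in 10 and Psap in 8. Cluster 2, led by hemoglobin genes but with 11 of 12 macrophage markers raised, was left unnamed by thresholds set after the data were seen. It held 35 control and 234 HFD cells, and with it included 5 members were called higher and 1, Ctns, lower. In that fit 723 of all 8399 genes tested were called higher and 994 lower.

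Shares of macrophage-like cells with a UMI of a member were compared after each cell was thinned to 3000 UMIs. Lipa was detected in 39.5% of 281 control cells (exact 95% interval 33.7% to 45.5%; 31.5% to 50.5% over the samples) and in 77.2% of 439 HFD cells (73.0% to 81.1%; 74.3% to 78.7%). Gusb was detected in 40.6% (34.8% to 46.6%) and 64.5% (59.8% to 68.9%), and Atp6v1c1 in 19.2% (14.8% to 24.3%) and 41.2% (36.6% to 46.0%). Thinning left out 47 control and 10 HFD cells below that depth, and without it the Lipa shares were 53.4% and 94.4%, at median depths of 6044.5 and 13026 UMIs. In T cell-like cells Lipa was detected in 3 of 20 thinned cells (15.0%) in each diet, Gusb in 4 control and 7 HFD cells of 20 and Atp6v1c1 in 2 and 6 of 20, at median depths of 3604 and 6758.5 UMIs before thinning. These intervals cover counting error only.

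Each macrophage-like cell thinned in this way held some hydrolase and some pump UMIs. The median cell had 6, 5 and 7 hydrolase UMIs in controls 1, 2 and 3 and 10, 10 and 9 in HFD. Pump UMIs were 10 in the median cell of each control and 16, 15 and 15 in HFD. Across cells of 1 sample the hydrolase and pump counts were weakly related, with Pearson's r from 0.06 to 0.30 in the 6 samples of 54 to 183 cells. At such low counts this is a description, and the cells of a sample share their library.

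The ratio of hydrolase to pump UMIs did not overlap between diets in whole samples or in the cDC2-like cluster 5, and overlapped in macrophage-like cells and in clusters 0 and 7. In whole samples controls 1, 2 and 3 had ratios of 0.503, 0.442 and 0.532 and HFD samples ratios of 0.625, 0.648 and 0.592 (0.492 ± 0.046 and 0.622 ± 0.028, mean and SD, n = 3). Summed hydrolase levels were 1.60 times and summed pump levels 1.27 times as high in HFD. In macrophage-like cells the controls had 0.612, 0.5997 and 0.629 and the HFD samples 0.666, 0.667 and 0.6095, so HFD 3 lay among the controls. In cluster 5 the controls had 0.439, 0.326 and 0.486 and the HFD samples 0.524, 0.505 and 0.561. In macrophage-like cells, hydrolases were 1.41 times, V1 genes 1.51 times, V0 genes 1.30 times and membrane proteins 1.13 times as high in HFD. The ratio is of UMIs and not per length, and a sum is led by the genes with most UMIs: with each gene weighted equally, the log2 difference in the ratio was 0.16 instead of 0.34 in whole samples and -0.0783 instead of 0.076 in macrophage-like cells.

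**Figure D4:**
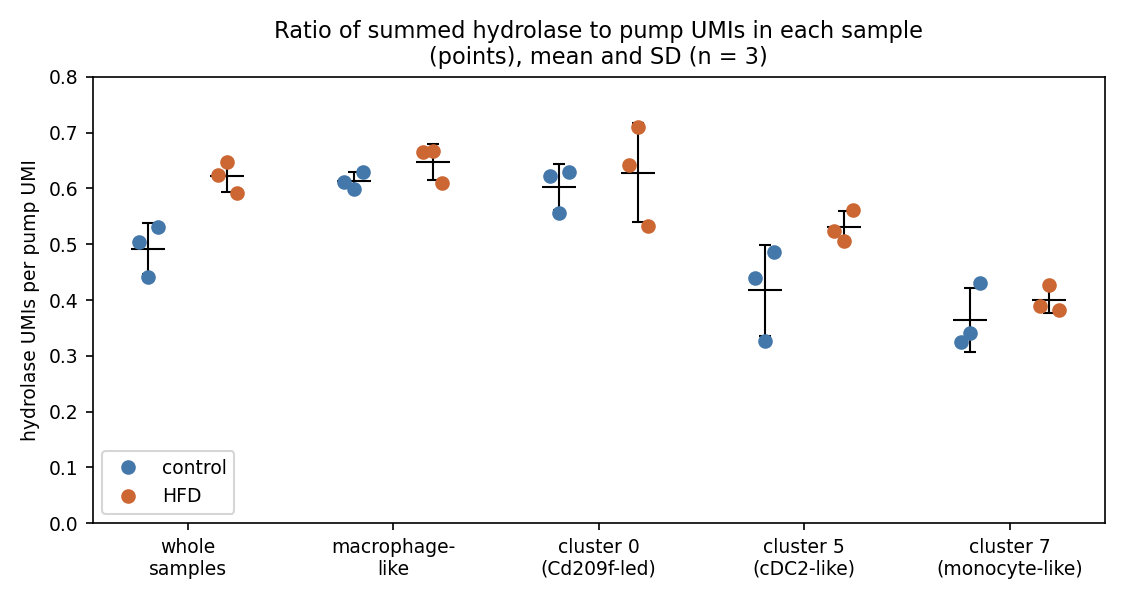
Hydrolase UMIs per pump UMI in each sample (points) with mean and SD (n = 3), for whole samples, macrophage-like cells and clusters 0, 5 and 7. Whole-sample controls lie at 0.442 to 0.532 and HFD at 0.592 to 0.648, macrophage-like cells overlap near 0.61, and cDC2-like and monocyte-like cells lie lower.

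The ratio also varied among cell classes, and it is given by diet because the classes differ in their mix of diets. In macrophage-like cells its mean was 0.614 ± 0.015 in control and 0.648 ± 0.033 in HFD, in cDC2-like cells 0.417 ± 0.082 and 0.530 ± 0.029, and in monocyte-like cells 0.365 ± 0.057 and 0.399 ± 0.023 (SD, n = 3 each). Fibroblast-like cells of HFD samples 1, 2 and 3 had 0.557, 0.629 and 0.573. Thus monocyte-like cells lay below macrophage-like cells in both diets. With all samples pooled, they had 3721 against 4975 CPM for the pump and 1414 against 3194 CPM for the hydrolases. The macrophage-like pool held 328 control and 449 HFD cells, and the monocyte-like pool 73 and 52. Over samples with at least 20 such cells, hydrolases did not overlap: 1221 to 1594 CPM in monocyte-like and 2078 to 3665 in macrophage-like cells. Pump levels did overlap, at 3229 to 3741 CPM (3 samples) and 3465.5 to 5504 CPM (6 samples). Cluster 4, unnamed, led by Lyz1, Ear2 and Retnla and made of 156 control and 3 HFD cells, had a ratio of 0.365. Cluster 6, led by S100a9, with 127 control and 17 HFD cells, had 0.478. The lowest ratio of the 16 clusters was 0.311, in cluster 14, migratory dendritic cell-like, with 23 control and 16 HFD cells. Clusters 11 and 13, also unnamed, held 37 and 24 control and 12 and 16 HFD cells.

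Cluster 1 held the highest level of 22 of the 36 members among the 16 clusters. The share of all genes with their highest level there was not computed. Set against cluster 0, all 13 pump genes were higher in cluster 1, with a median log2 ratio of 0.63, and 10 of 12 hydrolases, with a median of 0.35. Of all 7477 genes at 10 or more CPM in either cluster, 3873 were higher in cluster 1, and their median over all 7477 was 0.04. Lipa was at 790 against 164 CPM, Gusb at 605 against 135, Psap at 7442 against 2797 and Atp6v1c1 at 235 against 65.0. Tfeb was at 47.2 against 21.1. Membrane proteins were on both sides of 0, with 3 of 7 higher in cluster 1, and Ctns was at 13.3 against 24.3. The pump gene Atp6v0d2, not a member, was among the genes that lead cluster 1. These are descriptions, because clusters were made from the same cells.

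**Figure D5:**
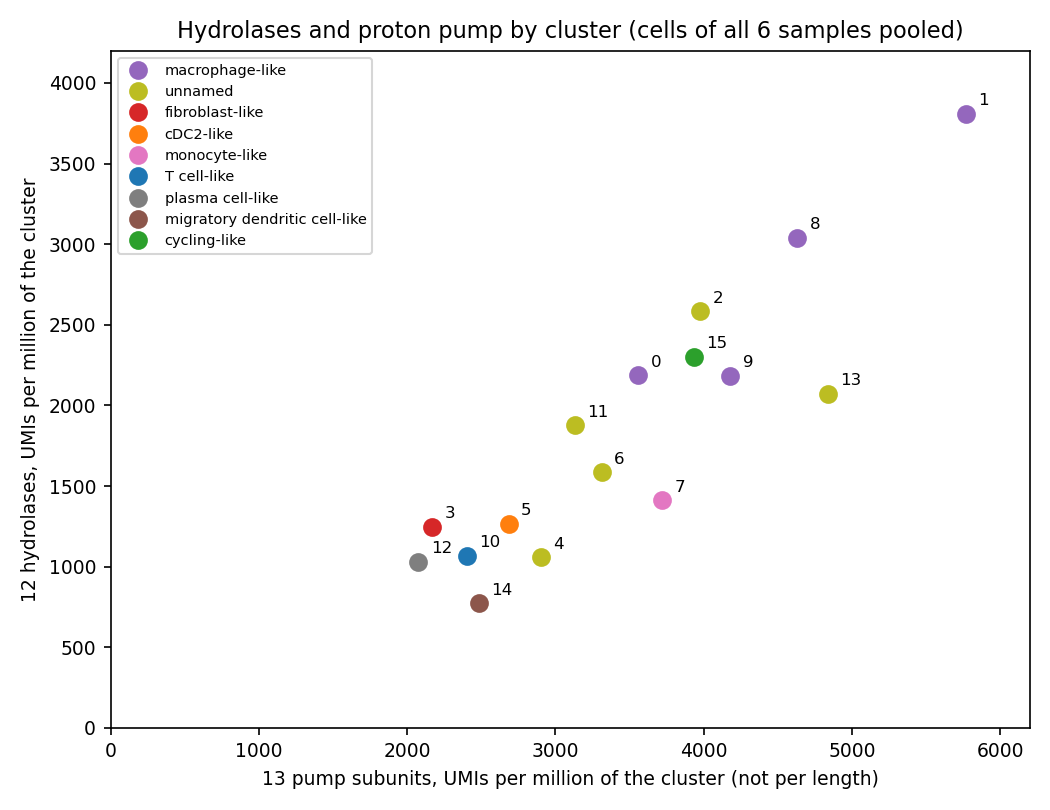
Summed CPM of the 12 hydrolases against those of the 13 pump genes in each of the 16 clusters, numbered and coloured by class. Cluster 1 stands alone at the upper right (3811 and 5770), and clusters 4, 7, 13 and 14 have few hydrolase UMIs for their pump level. The fibroblast-like, plasma cell-like, T cell-like and dendritic clusters lie at the lower left.

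Diets were also compared within the 3 clusters that had at least 10 cells in every sample, a comparison added after the data were seen. In cluster 0, none of 31 members that passed the filter was called by edgeR, where 0.834% of genes were called higher and 1.90% lower by adjusted p. In this cluster 5 members had an unadjusted p under 0.05, and the share of all genes at that threshold was not computed. DESeq2 was not run there. Lipa was at 156, 181 and 176 CPM in control and at 231, 231 and 359 CPM in HFD (0.67 ± 0.22, edgeR adjusted p = 0.13). The HFD samples contributed 15, 11 and 15 cells. In cluster 7, monocyte-like, none of 24 was called, where 0.198% of genes were called higher and 0.346% lower by adjusted p. Among the 24, 2 had an unadjusted p under 0.05, again without a share over all genes.

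In cluster 5, cDC2-like, 5 of the 26 members that passed the filter were called higher and none lower, where 3.49% of genes were called higher and 2.34% lower. No member was lower at an unadjusted p under 0.05 in edgeR either. Lipa was at 93.2, 34.3 and 103 CPM in control and at 180, 269 and 234 CPM in HFD (1.51 ± 0.31, edgeR adjusted p = 0.015). Hexa and Lamp1 rose by 0.95 each, Atp6v1b2 by 1.02 and Atp6v0c by 0.55. The count of 5 became 3 without control 1 (61 of 2632 genes called higher) and 1 without control 2 (58 of 2646). It was 0 without HFD 1 (40 of 2620) and 1 without HFD 2 (63 of 2735). Each sample gave 16 to 51 such cells. C1qa stood at 21.2% of its macrophage-like level in this cluster and Lipa at 22.2%, all samples pooled, and the part of RNA from macrophages in the diet difference was not tested. Whether the diet difference differs between clusters was not tested.

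Other genes of the system were counted from lists, and the shares of all genes called stand as background to each count: 15.2% higher and 17.2% lower in whole samples, 11.4% and 15.1% in macrophage-like cells. Of 24 other hydrolases, 11 rose and 3 fell in whole samples, and 7 rose and 4 fell in macrophage-like cells, where the share that fell was near the background. Naaa, which cleaves fatty acid ethanolamides, fell by 1.61 on the log2 scale in whole samples, and Galns, a sulfatase of glycosaminoglycans, rose by 2.10 ± 0.27 in macrophage-like cells. Of 11 cathepsins, the lysosomal proteases, 8 rose and 2 fell in whole samples and 6 rose and 2 fell in macrophage-like cells. Ctsz rose by 0.78 and 1.01 and Ctsd by 1.62 in whole samples, whereas Ctsc fell by 1.48 in macrophage-like cells.

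Of 17 other membrane proteins tested, 5 rose and 3 fell in whole samples, and of 14 tested in macrophage-like cells 4 rose and 1 fell. Cd68, a heavily glycosylated lysosomal protein of macrophages, rose by 1.29 and 1.10, and Sidt2 fell by 0.95 and 1.04. Of the other pump genes, 3 of 6 tested rose in whole samples and 4 of 5 in macrophage-like cells, none fell, and Tcirg1, the a3 subunit of V0, rose by 0.59 and 0.92. Of 15 regulators of lysosomal transcription and of mTORC1, which senses nutrients on the lysosome, 4 rose and none fell in whole samples (1, Tfe3, was lower at an unadjusted p under 0.05). Mitf, a relative of Tfeb, rose by 0.78 ± 0.15 there and was not called in macrophage-like cells (0.49 ± 0.23, edgeR adjusted p = 0.14). In macrophage-like cells 2 rose and 2 fell, near the background in both directions. Flcn, folliculin, which acts on Tfeb, was 1 of those that fell, by 1.14. Of 10 genes that sort hydrolases to the lysosome, 4 rose in whole samples and 2 in macrophage-like cells, and Igf2r, a receptor for mannose 6-phosphate, rose by 1.35 ± 0.28 and 2.46 ± 0.54.

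In the annotation (GENCODE vM21), 11 members overlap another protein-coding gene, 10 of them only on the opposite strand, among them Lamp1, Hexa, Grn and Atp6v1b2, and Glb1 overlaps Tmppe on the same strand. The sources used here do not state whether counting used strand, so reads of such pairs may not be told apart.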

How the data were processed

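Per the submitters' processing notes, which give neither role nor order, the tools were Cell Ranger and Seurat 2.4 and the build was mm9. The authors deposited raw UMI counts per gene and cell for each of 6 samples of sorted cells, 1997647 to 5708323 UMIs per sample once each barcode was kept only where it had most UMIs. Cells needed at least 200 genes and at most 10% mitochondrial UMIs. Clusters were made without the members (scanpy 1.11.5, leidenalg 0.10.2, 2000 variable genes, 30 components, 20 neighbours, resolution 1.0) and named from marker lists, with thresholds set after the data were seen. No doublet caller was run. UMIs were summed per sample and tested with edgeR 4.0.16 (R 4.3.3; filterByExpr, TMM, quasi-likelihood, Benjamini-Hochberg over all genes tested, threshold 0.05), with DESeq2 1.42.0 as an alternative. Scripts were tested on simulated data. The members and lists were chosen with earlier results of these data known. All 36 members are named, with values per sample for the 6 largest called differences in each fit and the 2 genes of each role with most UMIs, and at most 2 genes of every other list, those with the smallest p, except 1 that is not reported here. Promoters came from RefSeq (GRCm38.p6), read by gene symbol, and no coordinate was converted between builds.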

Additional observations from a re-analysis of the deposited data

How the results depend on the processing

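Precision is limited by 3 samples per group, by barcodes listed in several samples and by few cells per cluster and sample. In whole samples, the count of 18 higher members was 6 with only barcodes listed in 1 sample. There, 965 of 6810 genes tested were called higher, a share near that of the members. When single samples were left out, the count was 11 (without HFD 1, 1044 of 10690 genes) to 22 (without control 3, 1639 of 10861). With only barcodes listed in 1 sample, 1 member, Grn, was lower, at a log2 fold change of -0.36. In macrophage-like cells, the count of 11 was 6 with the replicate block (593 of 7730 genes called higher) and 5 with barcodes as deposited (457 of 9168). It was 7 with no filter on cells (745 of 7911). With the hemoglobin-led cluster added, an alternative chosen after seeing the data, it was 5 (723 of 8399). Barcodes as deposited and no filter on cells were clustered and named anew, so the cells called macrophage-like also changed. When single samples were left out the count was 3 to 15 (15 without control 3, 1100 of 8714 genes), and the counts of 3 were near the share of all genes. The count of lower members in macrophage-like cells was 0 to 1 when single samples were left out, 1 with no filter on cells and 1 with the hemoglobin-led cluster added, in each case Ctns. Atp6v0e reversed to -0.13 in macrophage-like cells with barcodes as deposited. The log2 difference in hydrolase UMIs per pump UMI was 0.16 with each gene weighted equally in whole samples. In macrophage-like cells it was 0.17 with barcodes as deposited, 0.013 with only barcodes listed in 1 sample and -0.0783 with each gene weighted equally. The cause of these changes was not tested. Same-numbered control and HFD samples deviated with correlations of -0.16, -0.07 and -0.13, so the numbers were not taken as pairs. The replicate block left 12 higher members in whole samples (1114 of 10450 genes called higher) and 3 in cluster 5 (68 of 2437).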
